A study of Mus musculus with 4 samples.

Results

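The genes described here were *Nfe2l2*, which encodes the transcription factor Nrf2, and 9 antioxidant genes that Nrf2 is known to switch on: *Nqo1*, *Gclm*, *Gclc*, *Srxn1*, *Txnrd1*, *Slc7a11*, *Gsr*, *Prdx1* and *Txn1*. These 10 genes were chosen by name as a pathway, with earlier results of these data known. All 10 of them were listed in each of the 4 libraries, among 19491 genes listed in any library. The libraries held CD45+ cells sorted by FACS from the brain and from the dura mater of C57BL/6J mice aged 8 weeks, and were made with droplet 3' chemistry. CT libraries came from mice after a sham operation, and INJ libraries from mice after photothrombotic injury (PTI), in which a light-activated dye clots vessels of the dura mater and brain, both at day 3. Mice of all libraries carried the same strain background and no transgene is given in the labels. There was 1 library for each tissue and condition, the number of mice pooled in a library is not given in the sources used here, and so no statistical test was possible. All intervals below are exact 95% intervals that cover counting error only, and how far mice of a condition would differ cannot be told from these data.

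Nrf2 is held at a low level in resting cells by Keap1, which binds it and passes it to a Cul3 ligase for degradation. Oxidants and electrophiles disable Keap1, and Nrf2 then pairs with a small Maf protein and binds antioxidant response elements, while Bach1 competes for the same elements. Control is therefore largely at the level of the Nrf2 protein, which these libraries do not measure. The products of the targets form 2 linked systems. *Slc7a11* encodes the cystine importer, *Gclc* and *Gclm* the catalytic and modifier subunits of the enzyme that limits glutathione synthesis, and *Gsr* the reductase that recycles oxidised glutathione. *Txn1* encodes thioredoxin, *Txnrd1* its reductase, *Prdx1* a peroxidase that thioredoxin recharges, and *Srxn1* the enzyme that rescues over-oxidised peroxiredoxins. *Nqo1* encodes a quinone reductase. In injured brain, phagocytes that take up dying cells and blood meet a load of oxidants and iron, and *Slc7a11* is known to answer to Atf4, the factor of amino acid stress, as well as to Nrf2.

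The members lie on 6 mouse chromosomes in the GENCODE annotation of GRCm38. *Nfe2l2* spans chr2:75675513-75704641, *Srxn1* chr2:152105516-152111376, *Slc7a11* chr3:49892526-50443614 and *Gclm* chr3:122245557-122270732. *Txn1* spans chr4:57943373-57956411, *Prdx1* chr4:116685544-116700822, *Gsr* chr8:33652523-33698163 and *Nqo1* chr8:107388225-107403206. *Gclc* spans chr9:77754535-77794485 and *Txnrd1* chr10:82833951-82897712. To show what an antioxidant response element looks like at these genes, the 250 bases before the RefSeq start site (GRCm38.p6) are given for *Srxn1*, *Prdx1* and *Gclm*, which are among the genes with the largest differences below and hold a match, 5' to 3' on the strand of the gene, with the matching letters in capitals. The letters searched on both strands were TGACNNNGC and TGANTCAGC, and the second contains TGANTCA, the letters of AP-1, the factor family of Fos and Jun.
Srxn1: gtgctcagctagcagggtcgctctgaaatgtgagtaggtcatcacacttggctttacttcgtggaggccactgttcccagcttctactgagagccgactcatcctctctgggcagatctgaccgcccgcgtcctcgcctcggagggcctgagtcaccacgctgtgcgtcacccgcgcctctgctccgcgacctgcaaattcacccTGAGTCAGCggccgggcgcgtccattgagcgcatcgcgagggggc
Prdx1: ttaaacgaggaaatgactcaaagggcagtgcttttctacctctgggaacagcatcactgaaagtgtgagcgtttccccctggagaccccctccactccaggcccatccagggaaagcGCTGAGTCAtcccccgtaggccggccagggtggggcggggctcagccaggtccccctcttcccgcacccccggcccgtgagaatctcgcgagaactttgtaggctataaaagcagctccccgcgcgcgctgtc
Gclm: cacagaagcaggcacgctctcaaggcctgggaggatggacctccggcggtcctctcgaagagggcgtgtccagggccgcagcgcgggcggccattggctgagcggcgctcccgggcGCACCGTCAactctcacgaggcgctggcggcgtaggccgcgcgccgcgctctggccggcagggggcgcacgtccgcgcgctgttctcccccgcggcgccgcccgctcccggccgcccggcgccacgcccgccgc
The *Srxn1* window is chr2:152105274-152105523 and its match, TGAGTCAGC, begins 45 bases before the start. The *Prdx1* window is chr4:116685349-116685598, and GCTGAGTCA, which reads as both motifs on the opposite strand, begins 133 bases before the start. The *Gclm* window is chr3:122245307-122245556, and GCACCGTCA, again on the opposite strand, begins 134 bases before the start. Of the 8 members with a window in the table, 5 held either motif (*Nfe2l2*, *Gclm*, *Srxn1*, *Txnrd1* and *Prdx1*). *Txnrd1* held a match in 1 of its 3 windows. TGACNNNGC was held by 4 of the 8 members and by 11.5% of 27025 genes, and TGANTCAGC by 2 of the 8 and by 1.17%. The share of genes with either motif was not computed. TGANTCA was held by 7.82% of those genes and, among the members, by *Srxn1* and *Prdx1*. These are matches of letters in a short window and were not tested for binding.

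Counts were used as unique molecular identifiers (UMIs), each of which stands for 1 captured transcript. Libraries held 49003977 to 115154317 UMIs in 3515 to 5925 barcodes, of which 2607 to 4439 were kept after filters, and 3 to 11 barcodes were shared by a pair of libraries. Of 14103 kept cells, 11019 (78.1%) were put in a class by marker genes that did not include the members, and a class is called by the cells it resembles (microglia-like and so on). Infiltrating macrophage-like cells (*Arg1*, *Gpnmb*, *Spp1*, *Fabp5*, *Fn1*) numbered 1097 in brain INJ and 2, 0 and 3 in brain CT, dura CT and dura INJ. A level below is given in UMIs per 1000000 UMIs of the class in 1 library, a ratio is between such levels, and ratios were computed where the groups held 50 or more UMIs between them. A gene counted as higher or lower when its ratio was at least 2-fold, which is 1 on the log2 scale, and the share of all measured genes past that fold is given beside the counts of targets. Levels are not corrected for transcript length and are compared between cells, not between genes.

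*Nfe2l2* was transcribed across the myeloid classes, at levels that differed widely between them, and was low in lymphocyte-like cells. In microglia-like cells its level was 303.9 in brain CT and 317.8 in brain INJ, and in infiltrating macrophage-like cells it was 323.7. In Ly6C hi monocyte-like cells it was 189.8 in brain CT, 263.9 in brain INJ, 230.3 in dura CT and 277.9 in dura INJ. Lyve1- macrophage-like cells held the most in dura CT, brain INJ and dura INJ, with 403.5, 492.5 and 442.7, and Ly6C low monocyte-like cells in brain CT, with 455.5. The intervals of these classes overlapped in both CT libraries and stood apart from the next class in both INJ libraries. T cell-like cells held 34.4 to 57.5 and B cell-like cells 63.1 to 76.7. Granulocyte-like cells held 162.3 to 346.0 over the libraries. Immature granulocyte-like cells, with 80.5 to 114.5, were nearer to the B cell-like range, and granulocyte precursor-like cells of dura CT, with 74.7, lay within it. The ratio for *Nfe2l2* stayed below 2-fold in all 10 comparisons that follow, with log2 values between -0.15 and 0.48.

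*Nqo1*, widely used as a readout of Nrf2 in other tissues, was close to absent. It gave 141 UMIs in all kept cells, and 29 of these lay in infiltrating macrophage-like cells, at a level of 1.07 (95% interval 0.719 to 1.54). Granulocyte-like cells gave 5, 12, 4 and 3 UMIs in brain CT, dura CT, brain INJ and dura INJ, at levels of 2.24, 4.52, 2.59 and 1.36. These levels lay above that of infiltrating macrophage-like cells, with an interval apart from it only in dura CT (2.34 to 7.90). Microglia-like cells gave 1 UMI in brain CT and 5 in brain INJ. No comparison reached 50 UMIs for *Nqo1*, so its ratio is not given, and the counts that follow concern at most 8 of the 9 targets.

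**Figure D1:**
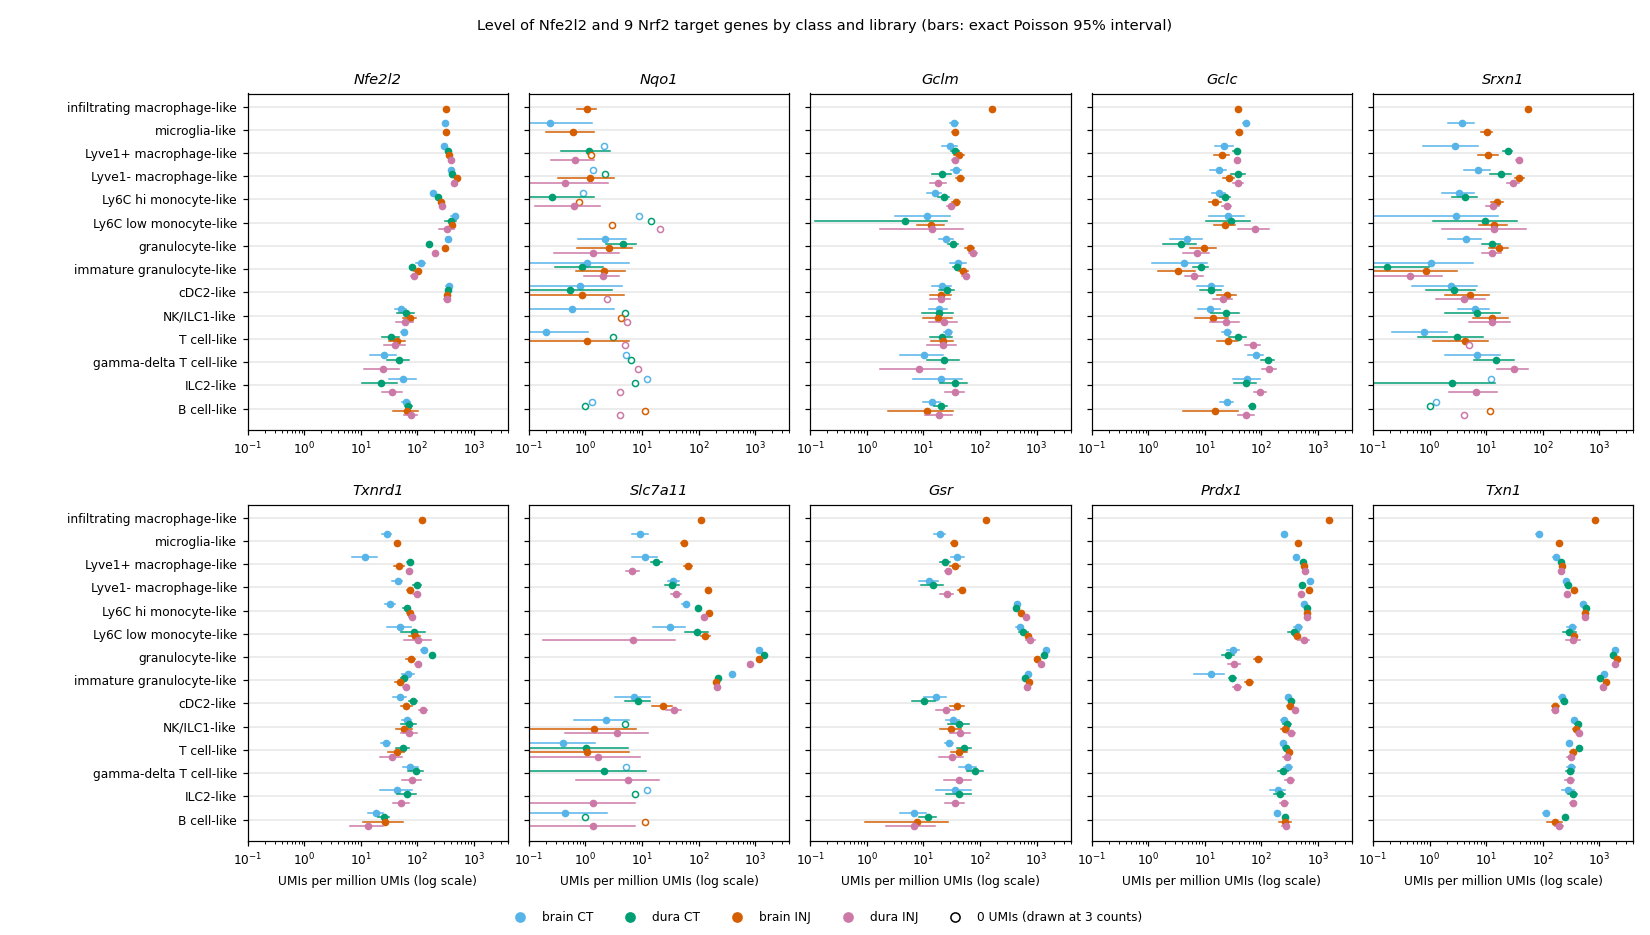
Level of each member (UMIs per 1000000 UMIs of the class, log scale) in 14 classes, with 1 point for each library and bars for the exact Poisson 95% interval; open points are classes with 0 UMIs, drawn at the level of 3 counts. *Slc7a11*, *Gsr* and *Txn1* peak in granulocyte-like cells, *Prdx1* is low in mature and immature granulocyte-like cells, and *Gclm*, *Srxn1* and *Prdx1* are highest, among these classes, in infiltrating macrophage-like cells.

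Granulocyte-like cells (mature neutrophil markers *S100a8*, *S100a9*, *Retnlg*, *Csf3r*, *Cxcr2*) carried a lopsided set of these genes, with the cystine importer, glutathione reductase and thioredoxin high and peroxiredoxin 1 nearly missing. *Slc7a11* stood at 1167 in brain CT, 1426 in dura CT, 1151 in brain INJ and 819 in dura INJ, the highest class in each library and apart from the next. *Gsr* stood at 1438, 1329, 1034 and 1168 in the same order, and *Txn1* at 1873, 1736, 2023 and 1889. Both were highest in granulocyte-like cells in every library, with intervals apart from those of the next class.

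*Prdx1* stood at 31.9 in brain CT, 25.6 in dura CT, 88.1 in brain INJ and 32.8 in dura INJ in the same cells. Immature granulocyte-like cells (*Camp*, *Ltf*, *Ngp*) were the other low class, with 12.6, 30.6, 59.7 and 36.7. In Ly6C hi monocyte-like cells it ran from 556 to 645. In CT, the log2 ratio of granulocyte-like over Ly6C hi monocyte-like cells for *Prdx1* was -4.13 in brain (95% interval -4.49 to -3.78) and -4.62 in dura (-4.99 to -4.27), and for *Slc7a11* it was 4.30 (4.09 to 4.51) and 3.85 (3.700 to 4.003). *Gclc* was also low in granulocyte-like cells, with 11, 10, 15 and 16 UMIs and levels of 3.77 to 9.72. *Txnrd1* was 131 in brain CT and 183 in dura CT, above every other class there.

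The importer was higher in mature than in immature granulocyte-like cells. Immature cells held *Slc7a11* at 395 in brain CT, 219 in dura CT, 206 in brain INJ and 210.3 in dura INJ. The log2 ratio of mature over immature cells in CT was 1.56 (1.41 to 1.72) in brain and 2.70 (2.61 to 2.80) in dura for *Slc7a11*. For *Gsr* it was 1.04 (0.91 to 1.16) and 1.09 (1.02 to 1.15), and for *Txn1* 0.64 (0.55 to 0.74) and 0.74 (0.68 to 0.79). The mature cells were shallower, with a median of 4236.5 against 11287 UMIs per cell in brain CT and 5464 against 14582.5 in dura CT. Thinned to 2000 UMIs per cell, 83.1% of mature and 48.5% of immature cells held an *Slc7a11* UMI in brain CT, and 87.0% and 33.1% in dura CT. The same share before thinning was 94.4% and 81.8% in brain CT. In B cell-like cells, which should lack the gene, *Slc7a11* gave 1, 0, 0 and 1 UMIs in brain CT, dura CT, brain INJ and dura INJ, in 1112 cells with median depths of 3462.5 to 5343 UMIs.

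Infiltrating macrophage-like cells of the injured brain held the targets above border macrophage-like cells, but not above every class of their own library, where granulocyte-like cells held more *Slc7a11*, *Gsr* and *Txn1*. All 8 measured targets were at least 2-fold higher than in border macrophage-like cells of brain CT, that is Lyve1+ and Lyve1- macrophage-like cells together, where 8.00% of 10339 genes were that much higher and 16.0% that much lower. The median log2 ratio of the targets was 1.997, against -0.16 for all genes. This sets 1097 cells of brain INJ against 292 cells of brain CT, 2 classes that are also different kinds of macrophage, so that injury and cell type cannot be told apart in it.

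Of the redox repair genes, *Srxn1* differed most, at 54.4 in infiltrating macrophage-like and 5.52 in border macrophage-like cells, with a log2 ratio of 3.30 (2.67 to 4.02). *Gsr* was at 127 and 23.2, with 2.45 (2.14 to 2.78). The glutathione synthesis subunits did not differ alike: *Gclm*, the modifier, was at 163.5 and 34.5, with 2.24 (1.99 to 2.51), and *Gclc*, the catalytic subunit, at 39.1 and 19.3, with 1.02 (0.67 to 1.39). The intervals of the 2 subunits did not overlap.

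*Slc7a11* was at 110.8 in infiltrating macrophage-like and 26.2 in border macrophage-like cells, and *Txnrd1* at 120.4 and 32.0. *Txn1* was at 839 and 223, and *Prdx1*, the most counted member in this class with 41650 UMIs, at 1542 and 608. Their log2 ratios were 2.08 (1.78 to 2.39), 1.91 (1.64 to 2.19), 1.92 (1.81 to 2.02) and 1.34 (1.28 to 1.40) in that order. *Nfe2l2* itself stood at 323.7 and 355.4, with a log2 ratio of -0.13. When classes were taken from clusters in place of single cells, *Slc7a11* and *Gsr* dropped below 2-fold, to 0.43 and 0.39, while the other 6 stayed above it. *Gclc* was under 2-fold with no filter on cells (0.93) and after thinning (0.62).

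**Figure D2:**
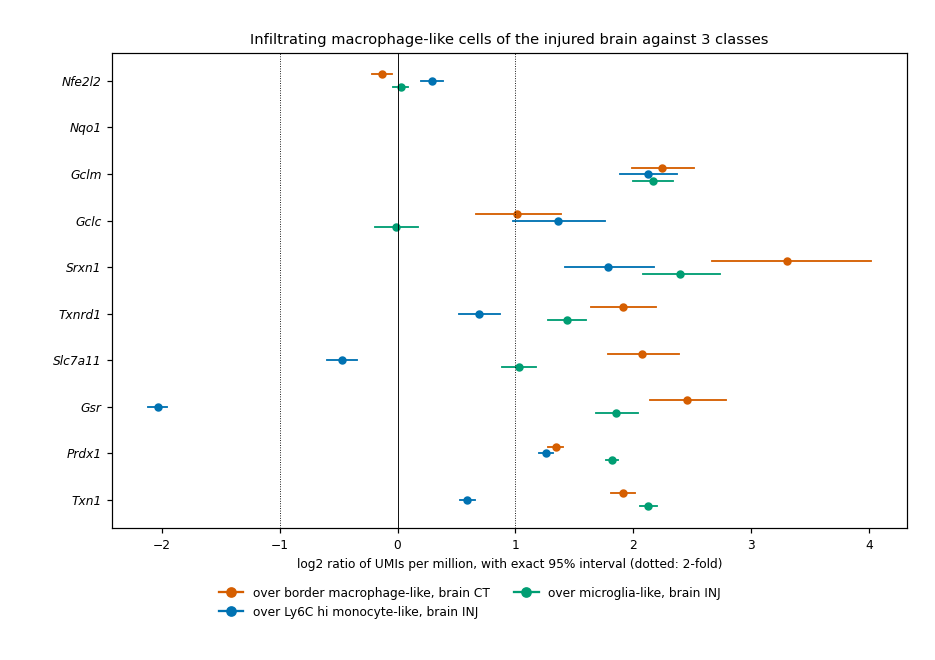
Log2 ratio of the level of each member in infiltrating macrophage-like cells of brain INJ over 3 other classes, with bars for the exact 95% interval and dotted lines at 2-fold; *Nqo1* had too few UMIs. *Gclm*, *Srxn1*, *Prdx1*, *Txn1* and *Txnrd1* lie to the right of 0 in all 3, *Gsr* and *Slc7a11* lie to the left against Ly6C hi monocyte-like cells, and *Nfe2l2* stays between -0.13 and 0.29.

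Against microglia-like cells of the same library, 7 of 8 measured targets were at least 2-fold higher and none lower, where 7.27% of 10701 genes were higher and 16.2% lower. The median log2 ratio of the targets was 1.84, against -0.20 for all genes. *Srxn1* (54.4 and 10.3) gave 2.40 (2.08 to 2.74), *Gclm* (163.5 and 36.4) 2.17 (1.997 to 2.341) and *Txn1* (839 and 192) 2.13 (2.05 to 2.20). *Gclc* was the exception, at 39.1 and 39.4, with a log2 ratio of -0.01 (-0.19 to 0.17). *Slc7a11*, at 110.8 and 54.2, was just past 2-fold with 1.03 (0.89 to 1.18) and fell under it with clusters (0.57) and with no filter on cells (0.60). The other 3, *Gsr*, *Prdx1* and *Txnrd1*, were higher by 1.86, 1.82 and 1.43, and *Txnrd1* was under 2-fold in 1 of 9 alternative settings. The infiltrating cells were deeper, with a median of 23402 UMIs against 9265.5, and after thinning 19.6% of them (95% interval 17.3 to 22.1) and 5.68% (3.89 to 7.96) of microglia-like cells held a *Gclm* UMI.

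Ly6C hi monocyte-like cells of the same library shared part of the set. Of 8 measured targets, 4 were at least 2-fold higher in infiltrating macrophage-like cells and 1 was lower, where 14.0% of 10231 genes were higher and 10.9% lower, and the median log2 ratio was 0.98 against -0.03 for all genes. *Gclm* (163.5 and 37.6) gave 2.12 (1.88 to 2.37), *Srxn1* (54.4 and 15.7) 1.79 (1.42 to 2.18), *Gclc* (39.1 and 15.2) 1.36 (0.98 to 1.76) and *Prdx1* (1542 and 645) 1.26 (1.1996 to 1.316). Of these, *Gclc* was under 2-fold in 1 of 9 alternative settings. *Gsr* ran the other way, at 127 and 521, with -2.04 (-2.12 to -1.96), and *Slc7a11* stood at 110.8 and 154, with -0.47 (-0.60 to -0.35). *Txnrd1* and *Txn1* were higher by less than 2-fold, with 0.69 and 0.59. In all 4 libraries *Gsr* was high in monocyte-like and low in border macrophage-like cells: Ly6C hi monocyte-like cells held 432 to 638, Ly6C low monocyte-like cells 502 to 774, and both border macrophage-like classes 12.6 to 47.1.

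The wider pathway was described by 9 further lists with 65 genes. Their counts in infiltrating over border macrophage-like cells stand against the same 8.00% of all genes higher and 16.0% lower, and a count of 1 gene in a list is near that background. Among 7 regulators of Nrf2, only *Sqstm1* passed 2-fold in infiltrating over border macrophage-like cells, at 242.8 and 113.2, with a log2 ratio of 1.10 (0.96 to 1.25). *Sqstm1* encodes p62, which draws Keap1 into autophagy. *Keap1* (41.3 and 34.8), *Cul3* (57.3 and 64.6) and *Bach1* (82.5 and 82.8), named for their roles, had intervals of the ratio that cover 0. Of 6 heme and iron genes, 3 were higher and 1 lower: *Ftl1* and *Fth1*, the ferritin chains that store iron, by 1.93 and 1.35, *Hmox1*, which breaks down heme, at 1490 and 544 by 1.45 (1.39 to 1.52), and *Slc40a1*, the iron exporter, at 10.6 and 77.6 by -2.87 (-3.12 to -2.63). The iron storage chains and the exporter differed in opposite directions here and against microglia-like cells, where *Fth1* gave 1.35 and *Slc40a1* -2.29. They differed in the same direction against Ly6C hi monocyte-like cells of brain INJ, where *Ftl1* gave 2.18, *Hmox1* 2.56 and *Slc40a1*, at 10.6 and 0.762 with 3 UMIs in the monocyte-like cells, 3.80 (2.23 to 6.08).

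Of 8 glutathione use genes measured among 9, 3 were higher in infiltrating over border macrophage-like cells: *Gpx4*, which reduces lipid peroxides, by 1.60 (1.502 to 1.691), *Gstm1* by 1.34 and *Gss* by 1.03. Of 8 thioredoxin and peroxiredoxin relatives, *Prdx6* (487 and 90.9) was higher by 2.42 and *Prdx5* by 1.44, and *Txnip*, the inhibitor of thioredoxin, was lower at 110.4 and 783.5 by -2.83 (-2.90 to -2.75). Of 5 NADPH supply genes measured among 6, 3 were higher: *Idh1*, *Pgd* and *Taldo1*, by 1.49, 1.48 and 1.47. Of 7 other detoxification targets, *Akr1a1* was higher by 1.13 and *Ephx1*, at 1.11 and 6.63, was lower by -2.58. *Ephx1* is named only because it makes up that count. None of the 3 superoxide and peroxide enzymes passed 2-fold, with a median of 0.03. Of 6 Atf4 targets measured among 7, 3 were higher: *Psat1* (serine synthesis) by 2.76, *Sesn2* by 1.78 and *Trib3* by 1.10, the last with an interval that covers 0 and named only to complete the count.

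Genes of the dissociation stress list, which tissue digestion is known to raise, moved with this comparison. Of 12, 6 were lower and 1 higher in infiltrating over border macrophage-like cells, with *Hspa1b* at 35.3 and 1996 and *Hspa1a* at 151 and 4715, and the summed level of the list was 9851 against 22781. The sum was also lower in INJ than in CT in microglia-like cells (15949 and 29353) and in brain Ly6C hi monocyte-like cells (8812 and 16353). It was 7450 and 10640 in INJ and CT in Ly6C hi monocyte-like cells of the dura mater, where *Hspa1a* went from 999 in CT to 58.7 in INJ and *Hspa1b* from 331 to 18.2. In granulocyte-like cells it was 8416 and 12058 in brain, with *Hspa1a* lower by -1.92 and *Hspa1b* by -2.50, and 8303 and 11640 in dura mater. In dura mater Lyve1+ and Lyve1- macrophage-like cells it was 18972 and 21269, and 16174 and 17323. Its part in the ratios of the members was not tested.

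Within microglia-like cells, brain INJ over brain CT, 3 of 8 measured targets were at least 2-fold higher and none lower, where 5.46% of 9710 genes were higher and 3.60% lower. The median log2 ratio of the targets was 0.84 against -0.15 for all genes. *Slc7a11*, the cystine importer, had the largest ratio, at 9.34 in CT and 54.2 in INJ, with 2.54 (2.07 to 3.04). It was found in 18 of 394 cells in CT and 107 of 546 cells in INJ, or 1.02% and 4.21% after thinning. *Srxn1* was at 3.73 in CT, where 16 UMIs lay in 5 cells, and at 10.3 in INJ, with 1.46 (0.68 to 2.34). *Txn1* was at 85.9 and 192, with 1.16 (0.996 to 1.329), and fell below 2-fold when each cell was weighted equally (0.85) or thinned (0.72).

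*Prdx1* (246 and 437), *Gsr* (19.6 and 35.1) and *Txnrd1* (28.9 and 44.5) were higher by less than 2-fold, with 0.83, 0.84 and 0.62. Both glutathione synthesis subunits were apart from these: *Gclm* stood at 35.0 and 36.4, with 0.06 (-0.23 to 0.35), and *Gclc* at 53.5 and 39.4, with -0.44 (-0.69 to -0.19). The sum of the 5 infiltrating macrophage markers was 1091 in INJ and 87.1 in CT in these cells, and 92.5% of the INJ and 99.5% of the CT cells lay in the same cluster. The part of those markers in the ratios was not tested. Thinned to 2000 UMIs, 5 targets were left to measure, with a median log2 ratio of 0.03.

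Of the other lists in microglia-like cells, to be read against the same 5.46% of all genes higher and 3.60% lower, 2 of 8 measured glutathione use genes were higher, *Glrx* by 1.40 and *Gpx1* by 1.14, and *Gstp1* was lower by -1.33, a gene whose reads a near-identical copy can share. *Prdx4* was higher by 1.32 and *Txnip* lower by -1.49 (1459 in CT and 518 in INJ). The Atf4 target *Psat1* was higher by 2.18 (1.79 to 2.59), from 14.005 in CT to 63.54 in INJ, and *Mafk*, a small Maf partner of Nrf2, was at 38.05 in CT and 19.01 in INJ, with -1.001. *Nqo2* was higher by 1.07. No heme and iron gene passed 2-fold, with a median of 0.32.

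**Figure D3:**
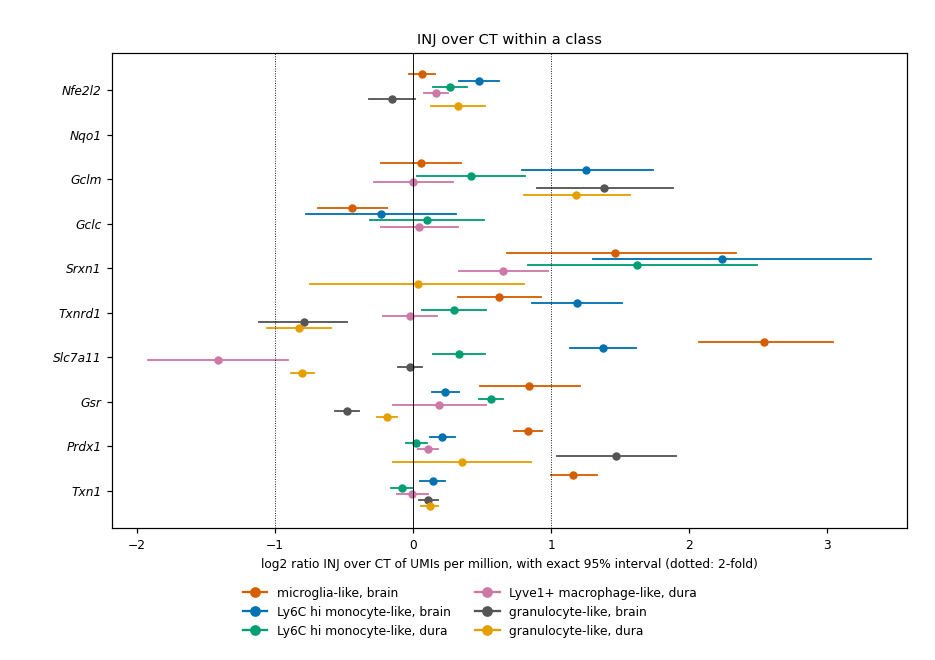
Log2 ratio INJ over CT of the level of each member within 6 class and tissue pairs, with bars for the exact 95% interval and dotted lines at 2-fold; points are left out where both groups together had fewer than 50 UMIs, as for *Nqo1*. *Slc7a11* runs from 2.54 in microglia-like cells of the brain to -1.41 in Lyve1+ macrophage-like cells of the dura mater, and *Gclm* is past 2-fold in both granulocyte-like pairs.

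Brain Ly6C hi monocyte-like cells had 4 of 8 measured targets at least 2-fold higher in INJ than CT and none lower, where 3.08% of 7865 genes were higher and 1.92% lower. The median log2 ratio of the targets was 0.71 against -0.04 for all genes. *Srxn1* went from 3.33 to 15.7, on 11 and 62 UMIs, with 2.24 (1.30 to 3.31). *Slc7a11* went from 59.4 to 154, with 1.37 (1.14 to 1.61), *Gclm* from 15.8 to 37.6, with 1.25 (0.79 to 1.74), and *Txnrd1* from 32.7 to 74.4, with 1.18 (0.86 to 1.52). *Gsr*, *Prdx1* and *Txn1*, all already high in CT, gave 0.23, 0.21 and 0.14, and *Gclc* -0.23 (-0.77 to 0.31). Median depth was alike, at 14409 and 14419 UMIs per cell. Granulocyte markers summed to 434 in INJ and 313 in CT in these cells, and their part was not tested. With a stricter margin between classes *Gclm* was at 0.78. Among the regulators *Maff*, a small Maf partner of Nrf2, was higher by 2.15 (1.31 to 3.09), at 4.25 in CT and 18.8 in INJ, and was chosen for naming after its value was seen.

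In dura mater Ly6C hi monocyte-like cells, 1 of 8 targets was at least 2-fold higher and none lower, where 1.31% of 8334 genes were higher and 1.31% lower. That gene was again *Srxn1*, at 4.27 and 13.2, with 1.62 (0.83 to 2.49). *Gclm* (22.9 and 30.5), *Slc7a11* (98.9 and 124.5) and *Txnrd1* (64.5 and 79.2) gave 0.42, 0.33 and 0.30, and *Gsr* (432 and 638) 0.56 (0.48 to 0.65). Whether the brain and dura mater ratios differ beyond the spread between mice was not tested. Granulocyte markers summed to 1122 in INJ and 598 in CT in these cells, and their part was not tested. In the other lists, against the same 1.31% of all genes in each direction, *Cbr3* was higher by 1.34, and 0 heme and iron genes were past 2-fold. In the brain comparison, where 3.08% of all genes were higher, *Fth1* was past 2-fold, by 1.27.

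Lyve1+ macrophage-like cells of the dura mater, which are among the resident macrophages of this layer, showed little difference between INJ and CT. None of 8 measured targets was at least 2-fold higher and 1 was lower, where 1.13% of 9888 genes were higher and 0.850% lower, and the median log2 ratio was 0.02 against -0.05 for all genes. *Gclm* (35.8 and 35.8 in CT and INJ), *Gclc* (36.5 and 37.6), *Txnrd1* (73.4 and 72.3) and *Txn1* (211 and 211) lay between -0.02 and 0.04 on the log2 scale. *Srxn1* went from 24.1 to 37.8, with 0.65 (0.33 to 0.98). *Slc7a11* was the gene past 2-fold, at 17.9 and 6.74, with -1.41 (-1.92 to -0.91), but its 78 UMIs in CT lay in 16 of 348 cells and its 61 UMIs in INJ in 21 of 567. It was under 2-fold with clusters (-0.84) and with a stricter margin between classes (-0.72).

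Lyve1- macrophage-like cells of the dura mater had 0 of 8 measured targets past 2-fold in either direction, where 1.01% of 6648 genes were higher and 0.451% lower. *Srxn1* was at 18.2 in CT and 30.1 in INJ, with 0.73 (0.05 to 1.45), and *Gsr* at 14.6 and 25.7, with 0.82 (0.06 to 1.63). The other 6 lay between -0.22 and 0.24. In brain, the INJ over CT ratio was above the dura mater ratio for 5 of 7 targets measured in both tissues in Lyve1+ macrophage-like cells, where this held for 45.8% of 7067 genes. The exceptions were *Gclc* (-0.16 in brain and 0.04 in dura mater) and *Gsr* (-0.14 and 0.19). In Lyve1- macrophage-like cells it held for 7 of 8 targets and 51.9% of 6519 genes, and the exception was *Prdx1* (-0.066 and -0.056). *Slc7a11* went from 11.4 to 65.1 in Lyve1+ macrophage-like cells, with 2.51 (1.77 to 3.36), and from 35.6 to 146 in Lyve1- macrophage-like cells, with 2.03 (1.69 to 2.39). *Txnrd1* went from 12.1 to 47.9 in Lyve1+ macrophage-like cells, with 1.98 (1.24 to 2.81), and *Srxn1* from 7.21 to 38.6 in Lyve1- macrophage-like cells, with 2.42 (1.66 to 3.27). *Gsr* went from 12.6 to 47.1 in Lyve1- macrophage-like cells, with 1.90 and an interval above 0. These are the members past 2-fold in the brain ratios of both classes. The share of all genes past 2-fold is not given here for those ratios. The Lyve1- class did not hold the same clusters in both brain libraries: 90.9% of 165 CT cells and 61.1% of 234 INJ cells lay in 1 cluster, and 32.1% of the INJ cells (75) lay in the cluster that also held 96.5% of the infiltrating macrophage-like cells of brain INJ. The part of those cells in the ratios was not tested.

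In some classes *Srxn1* also differed by tissue without injury. In CT, Lyve1+ macrophage-like cells held it at 2.85 in brain, on 4 UMIs, and 24.1 in dura mater, on 105 UMIs, and *Txnrd1* at 12.1 and 73.4. The *Srxn1* intervals of the tissues also stood apart in Lyve1- macrophage-like (7.21 and 18.2) and granulocyte-like cells (4.49 and 12.4). They overlapped in the other classes described in both CT libraries, as in Ly6C hi monocyte-like (3.3 and 4.3) and NK/ILC1-like cells (6.35 and 6.78). Tissue and library are the same thing in this design and cannot be told apart. In B cell-like cells *Srxn1* gave 0 UMIs in every library, which in the 450 cells of brain CT allows a share of cells with a UMI of up to 0.667% by the limit of 3 counts, and of up to 0.816% by the exact binomial interval.

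In granulocyte-like cells of the brain, INJ over CT, 2 of 6 measured targets were at least 2-fold higher and none lower, where 4.72% of 4960 genes were higher and 2.88% lower, and the median log2 ratio of the targets was 0.05 against -0.03 for all genes. *Prdx1* went from 31.9 to 88.1, with 1.47 (1.04 to 1.90), and *Gclm* from 25.1 to 65.5, with 1.38 (0.90 to 1.88). *Slc7a11* (1167 and 1151) and *Txn1* (1873 and 2023) gave -0.02 and 0.11, *Gsr* -0.48 and *Txnrd1* -0.79 (-1.11 to -0.47). The leading genes of a *Siglecf*+ cluster, 138 of its 156 cells from brain INJ, include no granulocyte marker. The only marker list with a gene among them was that of eosinophils. By its mean marker scores the cluster was still named granulocyte-like, and 93 of its 156 cells were classed so. This cluster held 82 of the 270 INJ cells of this class. Without it, a choice made after seeing the data, *Prdx1* was 1.06 and *Gclm* 1.59, *Slc7a11* was -0.48, and *Txnrd1* passed 2-fold lower with -1.14. The 5 macrophage markers summed to 423 in INJ and 163 in CT in these cells and the 5 infiltrating macrophage markers to 452 and 112, and their part in the *Prdx1* ratio was not tested. With a stricter margin between classes *Prdx1* was at 0.64.

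In dura mater granulocyte-like cells, 1 of 7 measured targets was at least 2-fold higher and none lower, where 1.15% of 5031 genes were higher and 2.56% lower, and the median log2 ratio was 0.04 against -0.17 for all genes. *Gclm* was again that gene, at 33.5 and 76.0, with 1.18 (0.80 to 1.57), so that it passed 2-fold in granulocyte-like cells of both tissues. After thinning, 5.61% (3.66 to 8.16) of CT and 13.8% (9.70 to 18.8) of INJ cells held a *Gclm* UMI in dura mater, and 3.44% and 8.89% in brain. *Slc7a11* was lower by less than 2-fold, at 1426 and 819, with -0.80 (-0.88 to -0.72), and *Txnrd1* at 183 and 104, with -0.82 (-1.06 to -0.59). *Prdx1* was at 25.6 and 32.8, with an interval that covers 0. INJ cells were deeper, with a median of 7969.5 against 5464 UMIs.

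**Figure D4:**
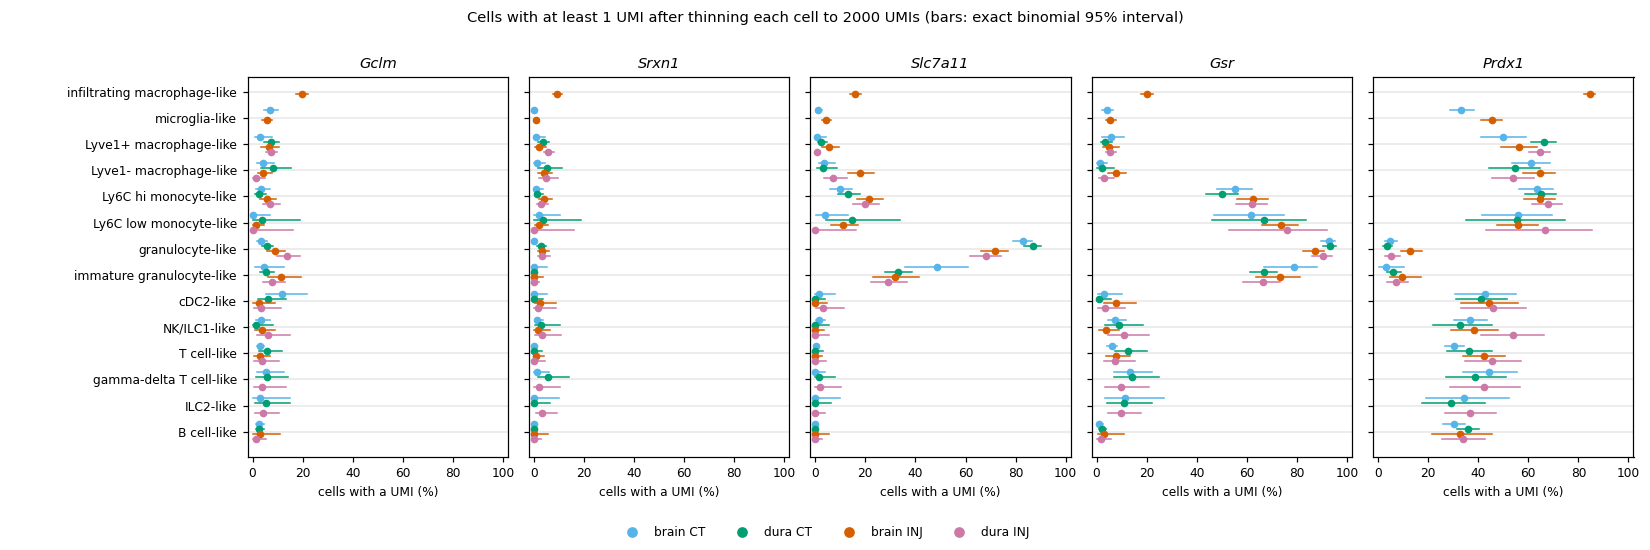
Percent of cells with at least 1 UMI of 5 members after each cell was thinned to 2000 UMIs, by class and library, with bars for the exact binomial 95% interval. *Slc7a11* and *Gsr* are seen in most granulocyte-like cells, *Prdx1* in 84.6% of infiltrating macrophage-like and 3.59 to 12.96% of granulocyte-like cells, and *Gclm* in 19.6% of infiltrating macrophage-like cells.

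*Gclc*, the catalytic subunit of glutathione synthesis, was high in some lymphocyte-like classes and not in others. Gamma-delta T cell-like cells held 79.0 in brain CT, 129.6 in dura CT and 136 in dura INJ, the highest class in each of these libraries, with an interval that overlapped the next class. ILC2-like cells held 56.7, 53.1 and 95.4 in the same libraries, and B cell-like cells 24.7, 68.2 and 53.4. T cell-like cells held 24.6, 38.4 and 70.2, and NK/ILC1-like cells only 12.1, 23.7 and 23.3. In brain CT, the B cell-, T cell- and NK/ILC1-like classes were below the 53.5 of microglia-like cells. Granulocyte-like cells were at 3.77 to 9.72. *Slc7a11* was at 0 to 5.55 in gamma-delta T cell-like cells.

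The targets did not form 1 pattern over the classes. Over 49 class and library pairs with at least 50 cells, which share libraries and depth, the closest pair of members was *Gsr* and *Txn1* (Spearman's rho 0.761), followed by *Slc7a11* and *Gsr* (0.649). *Gclc* and *Slc7a11* ran opposite (-0.608), as did *Nqo1* and *Gclc* (-0.512), although *Nqo1* rests on few UMIs. *Nfe2l2* came closest to *Slc7a11* (0.582) and had a value near 0 with *Gsr* (0.0032). The 5 genes outside all lists most like the mean of the 9 targets, among 9909 genes, were *Hacd4* (0.794), *Clec4e* (0.790), *Tnfaip2* (0.786), *Myo1f* (0.776) and *Gng5* (0.775). These correlations are a description over the same cells as above.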

How the data were processed

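CD45+ cells of brain and dura mater were sequenced as 4 droplet 3' libraries. Per the labels and the study's methods, reads were processed with Cell Ranger 3.1.0 on mm10 and Seurat 3.1.0, and cells had been released with collagenase, dispase and DNase at body temperature. The deposited values are on a natural log scale, ln(1 + UMIs per 10000 UMIs of the cell), and list genes found in at least 3 cells. Every nonzero value gave a whole number of UMIs within a relative tolerance of 1e-06, so UMIs were recovered and summed. The plan had assumed UMI sums as deposited. Cell Ranger counts reads that map to 1 gene, so genes with near-identical copies, such as *Prdx1* and *Txn1*, may be undercounted.

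Kept cells had 1000 to 6000 detected genes and no more than 7% of UMIs from mitochondrial genes. Scrublet (scanpy 1.11.5) scored doublets. Its automatic threshold marked 0 to 0.0634% of the barcodes of a library and was replaced by removing the highest scores, 0.8% of barcodes for each 1000 barcodes. Cells were classed by 30 marker lists with thresholds set after seeing marker scores, and 91.9% of 10137 cells that also had a cluster name (Seurat 5.3.0, R 4.3.3) carried the same name. Classes with at least 20 cells in a library are described.

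Levels carry exact Poisson intervals, ratios exact conditional intervals and shares Clopper-Pearson intervals, all at 95%, using scipy 1.17.1, numpy 2.4.6, pandas 2.3.3 and matplotlib 3.10.9 under Python 3.11.15. The scripts were tested on simulated data. All members are named. From the other lists, up to 3 genes per list and direction with at least 2-fold and 100 UMIs are eligible, and exceptions are marked. Likeness used genes with at least 500 UMIs. The members and lists were chosen with earlier results of these data known. Other class definitions, filters, scalings and weights were tried, 2 of them chosen after seeing the data.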

Additional observations from a re-analysis of the deposited data

Results flagged for a closer look

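*Slc7a11* in Lyve1+ macrophage-like cells had opposite directions in the tissues. In brain it was at 11.4 in CT, with 16 UMIs in 3 of 127 cells, and at 65.1 in INJ, with 155 UMIs in 29 of 202 cells, a log2 ratio of 2.51. In dura mater it was at 17.9 and 6.74, a log2 ratio of -1.41. The brain ratio minus the dura mater ratio was 3.92 on the log2 scale. With 1 library for each tissue and condition the difference was not tested. The brain ratio was not recomputed under the alternative settings. The sum of the infiltrating macrophage markers in these cells was 52.0 in CT and 730.0 in INJ in brain and 32.8 and 191.5 in dura mater, and its part in the result was not tested.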

How the results depend on the processing

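Alternatives were run only for the 10 comparisons in which targets past 2-fold were counted. Ratios INJ over CT in Lyve1+ and Lyve1- macrophage-like cells of the brain were not recomputed. Nor were those of granulocyte-like cells over other classes. In the 10 comparisons, none of 32 member ratios past 2-fold changed sign under an alternative, but 16 of 55 smaller member ratios did. So did 3 of 8 medians of the targets under 2-fold (range -0.12 to 0.08 in brain granulocyte-like cells, -0.19 to 0.21 in those of the dura mater and -0.07 to 0.16 in Lyve1- macrophage-like cells of the dura mater). *Gclm* in microglia-like cells (0.06) was -0.33 thinned and 0.51 with clusters. No interval of the median itself was computed. In 81 of 91 recomputations the median log2 ratio stayed within the outer limits of the intervals of its middle-ranked target or targets. In microglia-like cells it was 0.032 after thinning to 2000 UMIs, with 5 targets left (0.84 as reported). For infiltrating over border macrophage-like cells (1.997) it was 1.68 with clusters, 2.60 thinned and 2.40 with cells weighted equally. For infiltrating macrophage-like over microglia-like cells (1.84) it was 1.26 with clusters, 1.29 with no filter on cells, 2.14 thinned, 2.20 with cells weighted equally and 2.04 centred on all genes. In granulocyte-like cells of the brain (0.05) it was -0.12 without the *Siglecf*+ cluster, a choice made after seeing the data. The causes were not tested. Of 182 counts of targets past 2-fold, higher or lower, 163 stayed within 1.5 times or stayed at 0. Most counts of lower targets were 0 as reported, so this share says little about the counts above 0. The count higher in microglia-like cells was 5 of 8 measured targets with no filter on cells and 0 of 5 thinned, against 3 of 8. In brain Ly6C hi monocyte-like cells it was 2 of 6 with a stricter margin and 1 of 4 thinned, against 4 of 8. Targets that fell under 50 UMIs in a setting are left out of its count. Of the 32 member ratios, 22 stayed past 2-fold in every alternative that gave a value. No paired analysis was possible because there is 1 library per group and the labels give no shared replicate numbers. Low counts limit *Nqo1* and, in granulocyte-like cells, *Gclc* and *Srxn1*.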

Other observations

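Small classes held some of the extreme levels. In 24 endothelial-like cells of brain INJ, a type that a CD45+ sort should not hold, *Gclm* was at 233.8, above the 163.5 of infiltrating macrophage-like cells, on 41 UMIs. In 25 migratory DC-like cells of brain INJ, dendritic cells that move towards lymph nodes, *Slc7a11* was at 232.3. In mast cell-like cells of dura mater, *Srxn1* was at 16.9 in CT, in 7 of 105 cells, and at 46.0 in INJ, in 19 of 92 cells. Granulocyte precursor-like cells of dura CT held *Gclm* at 108.2 and *Slc7a11* at 61.4, and *Prdx1* at 209.7, where mature granulocyte-like cells of that library held 33.5, 1426 and 25.6.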
